A study of Mus musculus with 10 samples.

Results

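The miR-30 family was followed on mouse microarrays through 8 mature microRNAs (miRNAs): the 5p arms miR-30a-5p, miR-30b-5p, miR-30c-5p, miR-30d-5p and miR-30e-5p, and the 3p arms miR-30a-3p, miR-30d-3p and miR-30e-3p. They were taken by name, whatever their values, from the 1892 mature miRNAs on each array, and 7 of the 8 were bright enough to be tested among 476 in all. RNA came from 5 samples titled T-C cell (source label Col-/-) and 5 titled control cell (source label Control Col), and male liver with the description sle is given for every one of them. T-C cells are described as having received 0.5 mg TN-CF per dish of 100000 cells for 24 hours, beside a control, so treatment and source label cannot be told apart. The labels explain none of the names T-C, TN-CF, Col and sle, and give no further allele, promoter or animal age. Whether a group's samples were separate animals or cultures is not said either, and the p-values reflect sample-to-sample spread that may be partly or wholly technical.

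A miRNA hairpin is cut into a duplex, and usually 1 arm stays in the silencing complex as the guide while the other is largely degraded. The guide finds messenger RNAs mainly through its seed, bases 2 to 8, so family members with the same seed share most predicted targets. The miR-30 5p arms are abundant in most epithelia and in liver, kidney and heart, and are known as repressors of Snai1 and Ctgf (epithelial-mesenchymal transition and fibrosis), with Becn1 (autophagy) a known target of miR-30a-5p and Mttp (lipoprotein assembly) one of miR-30c-5p.

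The sequences below show why these probes belong together and why they are hard to keep apart, with the seed in capitals and each read 5′ to 3′. All are from RefSeq (GRCm38.p6), which held 5 of the 8 members and 4 of the 5 further probes named here, and each equals the target sequence given for its probe.
mmu-miR-30a-5p: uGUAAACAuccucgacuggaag
mmu-miR-30e-5p: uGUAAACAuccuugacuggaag
mmu-miR-30c-5p: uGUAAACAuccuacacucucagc
mmu-miR-30a-3p: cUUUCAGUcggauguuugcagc
mmu-miR-30e-3p: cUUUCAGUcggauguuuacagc
mmu-miR-384-5p: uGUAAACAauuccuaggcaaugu
mmu-miR-30f: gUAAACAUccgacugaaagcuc

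The seed GUAAACA was shared by all 5 of the 5p arms on the array, and by miR-384-5p alone outside the family. miR-30f starts 1 base further in, so its bases 2 to 8 are shifted against those of the 5p arms. Counting from the 5′ end of miR-30a-5p, miR-30e-5p differs from it by C13U. Between their 3p arms the difference is G18A, counted from the 5′ end of miR-30a-3p. miR-30c-5p differs from miR-30a-5p at 5 of the first 22 bases: C13A, G14C, G18C, G19U and A20C. By the target sequences on the array, miR-30d-5p differs from miR-30a-5p at 1 base and from miR-30e-5p at 2, while miR-30b-5p differs from miR-30c-5p at 4. Probes this alike may share signal, and that was not tested here.

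The family lies in 3 pairs of hairpins: Mir30a with Mir30c-2, Mir30e with Mir30c-1, and Mir30b with Mir30d. On GRCm38, miR-30a-5p lies at chr1:23272274-23272295 and miR-30a-3p at chr1:23272315-23272336 (plus strand), outside other genes of GENCODE M21. On the same strand, 19361 bases separate that hairpin from Mir30c-2, whose miR-30c-5p at chr1:23291714-23291736 lies in an exon of the lincRNA gene Gm27028. miR-30e-5p (chr4:120772660-120772681) and miR-30e-3p (chr4:120772618-120772639) lie on the minus strand in an intron of Nfyc, which encodes a transcription factor subunit. Mir30c-1, 2983 bases away in the same gene and with the same orientation, gives an identical miR-30c-5p (chr4:120769584-120769606). The array therefore cannot say which locus its miR-30c-5p signal came from. miR-30f is annotated on the opposite strand of the Mir30e hairpin. The Mir30a and Mir30e hairpins, with both arms in capitals, show how the arms compared below face each other in 1 precursor.
Mir30a: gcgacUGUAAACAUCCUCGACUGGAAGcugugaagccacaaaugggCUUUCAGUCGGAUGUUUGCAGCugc
Mir30e: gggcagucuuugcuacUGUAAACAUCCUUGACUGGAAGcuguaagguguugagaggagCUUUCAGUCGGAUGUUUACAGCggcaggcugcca

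Values below are either raw spot intensities (linear scanner brightness, the mean of 2 spots) or normalized levels, log2(intensity + 50) after cyclic loess between arrays. A miRNA counted as detected where its intensity passed the mean of the array's 16 blank spots plus 3 SD, a limit of 64.0 to 474, and entered the test when 5 or more of the 10 arrays detected it. Between 189 and 1314 miRNAs were detected per array. The array numbers in the file headers do not interleave between groups and what they count is not stated, so such an order and the group cannot be told apart. The labelled tissue was checked against markers. Of the 4 listed for hepatocytes, miR-192-5p (7608 to 18241), miR-194-5p (6697 to 20165) and miR-148a-3p were above the limit on all 10 arrays. miR-122-5p, the most characteristic hepatocyte miRNA, was so on only 1, at 57.8 to 193. All 5 epithelial and all 4 mesenchymal markers were above the limit on every array, among them miR-200b-3p (5794 to 12729), miR-143-3p (10434 to 23278) and miR-145a-5p (15029 to 27162). The skeletal muscle markers miR-1a-3p and miR-133a-3p were as well. These markers do not establish that hepatocytes were a main source of the RNA. Of the 22 tested markers of the hepatocyte, epithelial, mesenchymal, haematopoietic, endothelial, skeletal muscle and neuronal lists, 1 passed a limma adjusted p of 0.05, against 7.77% of all tested miRNAs. It was the lymphocyte miRNA miR-150-5p, higher in T-C cell samples by 0.86 (SE 0.23, limma adjusted p = 0.0433), and this call was lost in 13 of 20 alternatives, 8 of them with a single array left out. The summed raw intensity of the 6 haematopoietic markers was 3071 to 6222 over the T-C cell arrays and 2354 to 3212 over the controls, and its part in the results below was not tested.

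No tested miR-30 member passed the threshold between the groups, and as processed here the 95% intervals of all 5 of the bright 5p arms excluded a 2-fold change. Of the 7 tested, 0 passed a limma adjusted p of 0.05 (Benjamini-Hochberg over 476 miRNAs) and 0 passed at an unadjusted p of 0.05, whereas 7.77% of all tested miRNAs (37) passed the adjusted threshold and 87 the unadjusted one. The groups overlapped for every member, and failed to overlap for 3.78% of all tested miRNAs. With 7 members, a background of this size leaves little room for a called member, so the count of 0 is not particular to the family. The 95% intervals of the 7 differences ran from −0.41 to 0.77 on the log2 scale, and all 7 excluded a 2-fold change in either direction, as did 81.3% of the intervals of all tested miRNAs. This bound depends on the processing: under median centring the intervals of miR-30a-5p (−0.76 to 1.22), miR-30b-5p (−0.88 to 1.03), miR-30d-5p (−0.77 to 1.14) and miR-30e-5p (−1.003 to 0.99) reached past 2-fold. That of miR-30a-5p also did so with blanks subtracted (to 1.01) and with the second spot alone (to 1.10), while that of miR-30c-5p stayed inside under all 20 alternatives. The widest were those of the dim 3p arms with blanks subtracted, miR-30a-3p (−0.84 to 2.08) and miR-30e-3p (−2.45 to 1.93). The median difference was 0.07 over the 7 members and 0.02 over all 476.

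**Figure D1:**
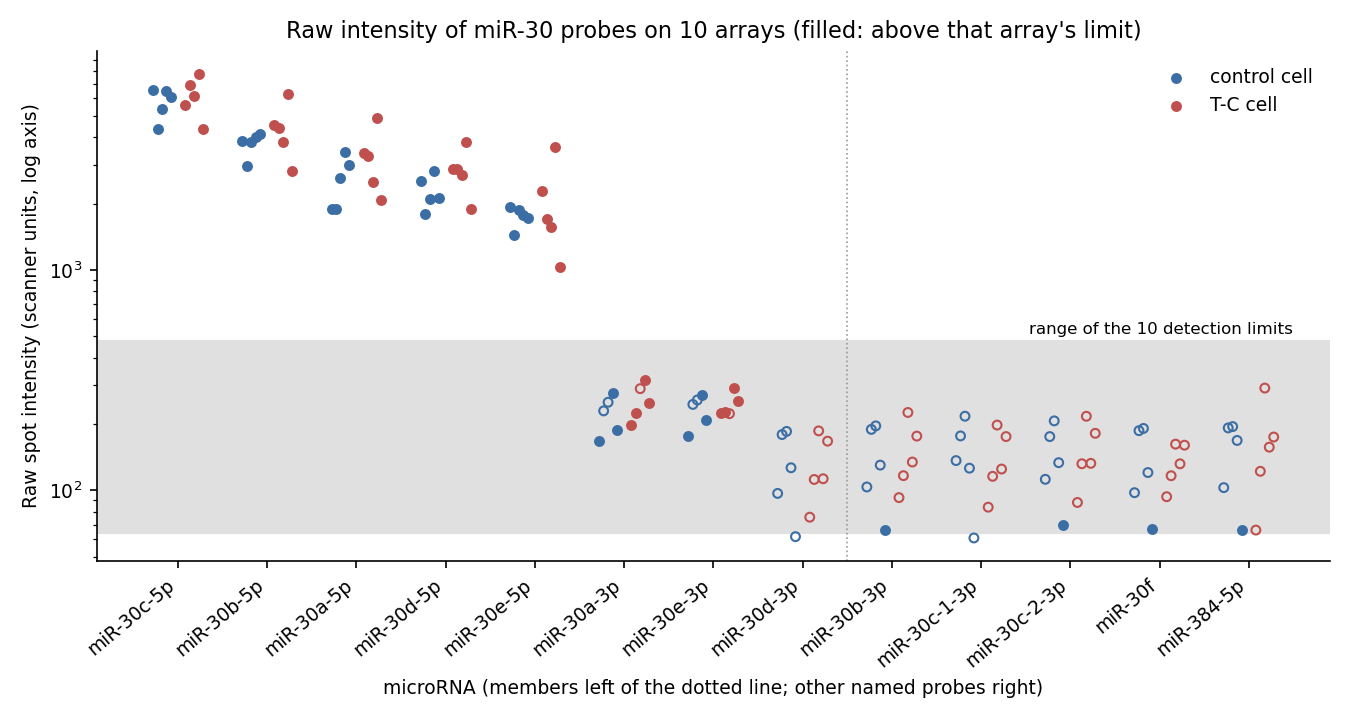
Raw spot intensity (scanner units, log axis) of the 8 members and 5 further probes on each array, blue for control cell and red for T-C cell, filled where the value passed that array's detection limit, with the limits' range of 64.0 to 474 in grey. The 5p arms lie between 1035 and 7748 on all 10 arrays, while miR-30a-3p and miR-30e-3p lie between 167 and 316 and miR-30d-3p is never above its limit.

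miR-30c-5p, the arm encoded at 2 loci, was the brightest member on 10 of 10 arrays, and the share of each locus was not measured. Its raw intensity was 5596, 6928, 6162, 7748 and 4362 in T-C cell replicates 1 to 5 and 6536, 4363, 5383, 6474 and 6079 in control cell replicates 1 to 5. T-C cell replicate 5 and control cell replicate 2 had nearly the same low value, and the groups overlapped. The normalized level was 12.51 ± 0.23 in T-C cell samples and 12.44 ± 0.17 in controls (SD, n = 5 each), a difference of 0.07 (SE 0.15, 95% interval −0.26 to 0.39, limma adjusted p = 0.875).

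miR-30a-5p had the largest difference of the family as processed here, and it did not pass. Raw intensities were 3384, 3282, 2508, 4872 and 2075 in T-C cell replicates 1 to 5, against 1895, 1897, 2618, 3427 and 3008 in control cell replicates 1 to 5. T-C cell replicate 4 was highest, control cell replicates 1 and 2 were lowest, and 1 T-C cell sample lay above all control cell samples after normalization. The normalized difference was 0.28 (SE 0.22, 95% interval −0.20 to 0.77, limma adjusted p = 0.613), from 11.27 ± 0.46 to 11.55 ± 0.27 (SD, n = 5 each). On control cell replicate 1 its 2 spots read 2803 and 988, a 2.84-fold gap, while the spots of the other 5p arms stayed within 1.21-fold of each other on all arrays. With the first spot of every miRNA alone the difference was 0.16 (SE 0.18), and without control cell replicate 1 it was 0.11 (SE 0.20). In these settings that of miR-30d-5p was larger, at 0.25 (SE 0.19) and 0.24 (SE 0.20). With the second spot alone miR-30a-5p differed by 0.40 (SE 0.32).

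miR-30b-5p and miR-30d-5p come from the same pair of hairpins and are known from cancer cells as joint regulators of Galnt7, a glycosyltransferase. miR-30b-5p read 4568, 4404, 3789, 6293 and 2801 in T-C cell replicates 1 to 5, and 3844, 2962, 3799, 4011 and 4126 in control cell replicates 1 to 5. Its normalized level was 12.00 ± 0.23 against 11.85 ± 0.13 (SD, n = 5 each), a difference of 0.14 (SE 0.14, 95% interval −0.17 to 0.46, limma adjusted p = 0.697). The T-C cell values spanned both sides of the narrow control cell range. miR-30d-5p read 2879, 2880, 2688, 3822 and 1890 in T-C cell replicates, and 2540, 1793, 2091, 2823 and 2128 in control cell replicates, in the same order. Its normalized level was 11.39 ± 0.28 against 11.16 ± 0.24 (SD, n = 5 each), a difference of 0.23 (SE 0.18, 95% interval −0.15 to 0.62, limma adjusted p = 0.603, the smallest in the family). T-C cell replicate 4 was highest and control cell replicate 2 lowest in raw intensity for miR-30d-5p, with the rest intermingled.

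miR-30e-5p, the arm carried in Nfyc, was the dimmest of the 5p arms on 9 of 10 arrays and spread more in T-C cell than in control cell samples. The exception was control cell replicate 1, with the discordant miR-30a-5p spots. Raw intensities were 2283, 1711, 1570, 3595 and 1035 in T-C cell replicates 1 to 5, and 1940, 1433, 1864, 1777 and 1726 in control cell replicates 1 to 5. Its highest and lowest values were thus both in T-C cell samples, in replicates 4 and 5. The normalized level was 10.85 ± 0.44 in T-C cell samples and 10.81 ± 0.12 in controls (SD, n = 5 each). The means differed by 0.03 (SE 0.20, 95% interval −0.41 to 0.47, limma adjusted p = 0.946), and whether the spreads differ was not tested.

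The 5p arms shared some of their high and low arrays. In raw intensity T-C cell replicate 4 was the highest T-C cell array for 5 of 5 arms and T-C cell replicate 5 the lowest for 5 of 5, and control cell replicate 2 was the lowest control for 4 of 5. The highest control was split over replicates 1, 4 and 5 (2, 2 and 1 arms). After normalization T-C cell replicate 5 was lowest for 4 of 5, T-C cell replicate 4 was highest for 3 and T-C cell replicate 3 for 2, and control cell replicate 4 was the highest control for 5 of 5. The mean of the 5 arms ran from 11.30 to 11.91 over the T-C cell arrays and from 11.30 to 11.80 over the controls on the normalized scale. The pooled within-group SD had a median of 0.26 over the 5p arms (0.19 to 0.38), beside 0.29 over all tested miRNAs.

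The order of brightness was miR-30c-5p, miR-30b-5p, miR-30a-5p, miR-30d-5p, miR-30e-5p on 8 of 10 arrays. Brightness differs between probes, so this is an order of signals and not of molecules. miR-30c-5p was above miR-30b-5p, and miR-30b-5p above the other three, on all 10. Adjacent in that order, miR-30a-5p and miR-30d-5p did not separate beyond their spread over all 10 arrays: their log2 difference was 0.14 ± 0.30 (SD), with miR-30a-5p brighter on 8. The exceptions were T-C cell replicate 3 and control cell replicate 1, where the miR-30a-5p spots read 2803 and 988. That array, at 10.63 for miR-30a-5p and 11.22 for miR-30d-5p, widens the SD, and the spread without it was not computed. miR-30d-5p exceeded miR-30e-5p on all 10, by 0.45 ± 0.27.

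The passenger-side 3p arms were close to background. miR-30a-3p read 197, 225, 289, 316 and 248 in T-C cell replicates 1 to 5, and 167, 229, 251, 277 and 188 in control cell replicates 1 to 5. miR-30e-3p read 225, 228, 223, 291 and 256 in T-C cell replicates, and 177, 245, 257, 272 and 210 in control cell replicates. Each was detected on 7 of 10 arrays, 4 T-C cell and 3 control cell, and T-C cell replicate 3 and control cell replicates 2 and 3, which had the 3 highest limits, were the exceptions for both.

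On the normalized scale miR-30a-3p was at 8.20 ± 0.26 in T-C cell samples and 8.21 ± 0.17 in controls (SD, n = 5 each), a difference of −0.01 (SE 0.14, 95% interval −0.30 to 0.29, limma adjusted p = 0.987). For miR-30e-3p the levels were 8.16 ± 0.27 and 8.27 ± 0.16 (SD, n = 5 each), a difference of −0.10 (SE 0.14, 95% interval −0.40 to 0.20, limma adjusted p = 0.768). The background treatment is not stated, and the values were taken as not background-subtracted because the blank spots lay well above 0. On that reading the background and the added 50 compress such low values, so these narrow intervals understate what could have changed. With blanks subtracted to a floor of 1, miR-30a-3p differed by 0.62 (SE 0.67, limma adjusted p = 0.766) and miR-30e-3p by −0.26 (SE 1.01, limma adjusted p = 0.934). miR-30d-3p was detected on 0 of 10 arrays and not tested. Its intensity was 75.6 to 186 over the T-C cell arrays and 61.7 to 185 over the controls, beside blank spots that averaged 54.9 to 227 per array, so its level and any change were not measurable at this sensitivity.

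**Figure D2:**
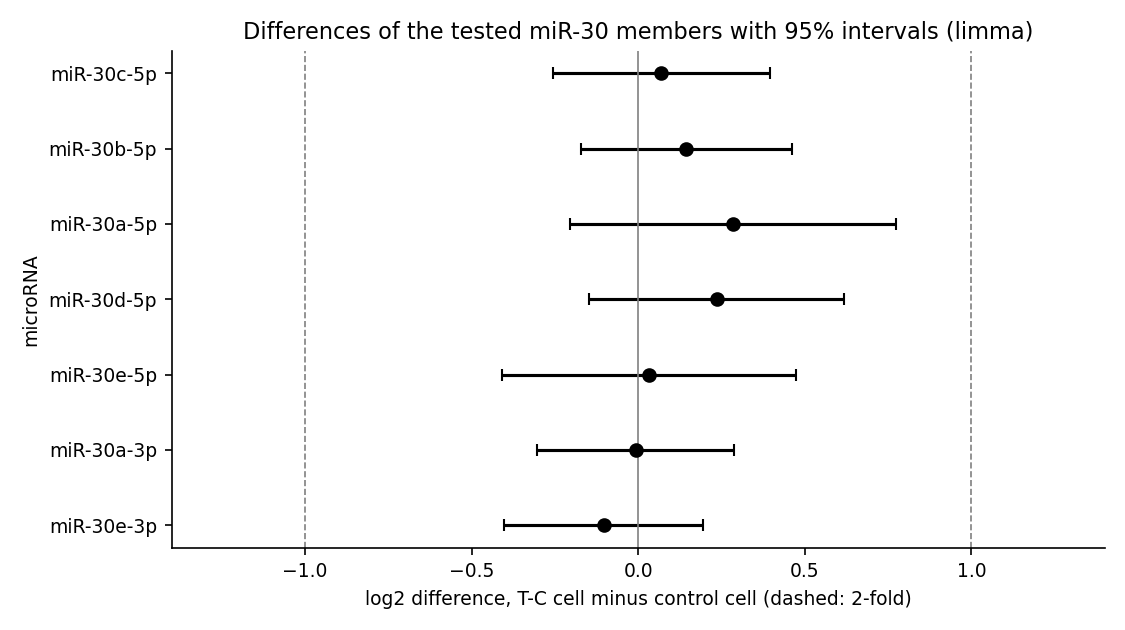
Difference in normalized level (log2, T-C cell minus control cell) of the 7 tested members with limma's 95% intervals, and dashed lines at a 2-fold change. Every interval includes 0 and lies inside the dashed lines, from −0.41 to 0.77.

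The remaining family probes gave no signal to compare. miR-30b-3p, miR-30c-2-3p, miR-30f and the seed relative miR-384-5p each passed the limit on 1 of 10 arrays, control cell replicate 5, which had the lowest limit (64.0), and miR-30c-1-3p on 0. Their raw intensities lay between 60.8 and 291. The strong signals of the family on these arrays were thus those of its 5 guide strands.

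Ratios within an array asked whether the arms of a hairpin, or 5p arms of the family, shifted against each other. In the arm ratios the 3p arm was below its detection limit on T-C cell replicate 3 and control cell replicates 2 and 3, so on those arrays the ratio is against background, which limits both tests. Between bright probes such a ratio is little affected by overall array brightness, and shows unequal change only. An arm ratio, with its 3p arm near background, can also move with overall brightness, and how far it did was not tested. With 5 against 5 samples the smallest exact two-sided permutation p is 0.00794, and p-values were adjusted over the 5 ratios with both probes tested. miR-30a-5p exceeded miR-30a-3p by 3.35 ± 0.19 in T-C cell arrays and 3.06 ± 0.34 in controls (log2, SD, n = 5 each), a difference of 0.29 (exact permutation p = 0.127, adjusted p = 0.635), above the control mean in 4 of 5 T-C cell samples. Control cell replicate 1, with the discordant miR-30a-5p spot, had the lowest ratio (2.51), and without it the difference was 0.14. Without normalization the difference was 0.17, and with blanks subtracted it reversed to −0.20. For miR-30e the arm ratio was 2.68 ± 0.48 against 2.55 ± 0.16, a difference of 0.14 (exact permutation p = 0.563, adjusted p = 0.704). Without normalization the miR-30e difference was 0.036. T-C cell replicate 5 had the lowest miR-30e arm ratio (2.00). The highest was 3.14 on T-C cell replicate 3, where miR-30e-3p was not detected, followed by 3.10 on T-C cell replicate 4, where it was.

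No ratio between 5p arms passed either. miR-30b-5p and miR-30d-5p come from neighbouring hairpins. The miR-30c-5p signal may come from either or both of its loci, so a ratio to it does not compare neighbours. miR-30b-5p stood above miR-30d-5p by 0.60 ± 0.13 in T-C cell arrays and 0.69 ± 0.18 in controls (log2, SD, n = 5 each), a difference of −0.09 (exact permutation p = 0.389, adjusted p = 0.648). miR-30a-5p relative to miR-30c-5p was −0.96 ± 0.22 against −1.17 ± 0.41, a difference of 0.22 (exact permutation p = 0.389, adjusted p = 0.648) that became 0.05 without control cell replicate 1. miR-30e-5p relative to miR-30c-5p was −1.67 ± 0.40 against −1.63 ± 0.09, a difference of −0.04 (exact permutation p = 0.873, adjusted p = 0.873). In this last ratio the T-C cell values ran from −2.10 to −1.04 and the control cell values from −1.77 to −1.51. The same T-C cell replicates, 4 and 5, set the ends of that range as for the level of miR-30e-5p itself. These p-values do not show that the ratios are equal.

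**Figure D3:**
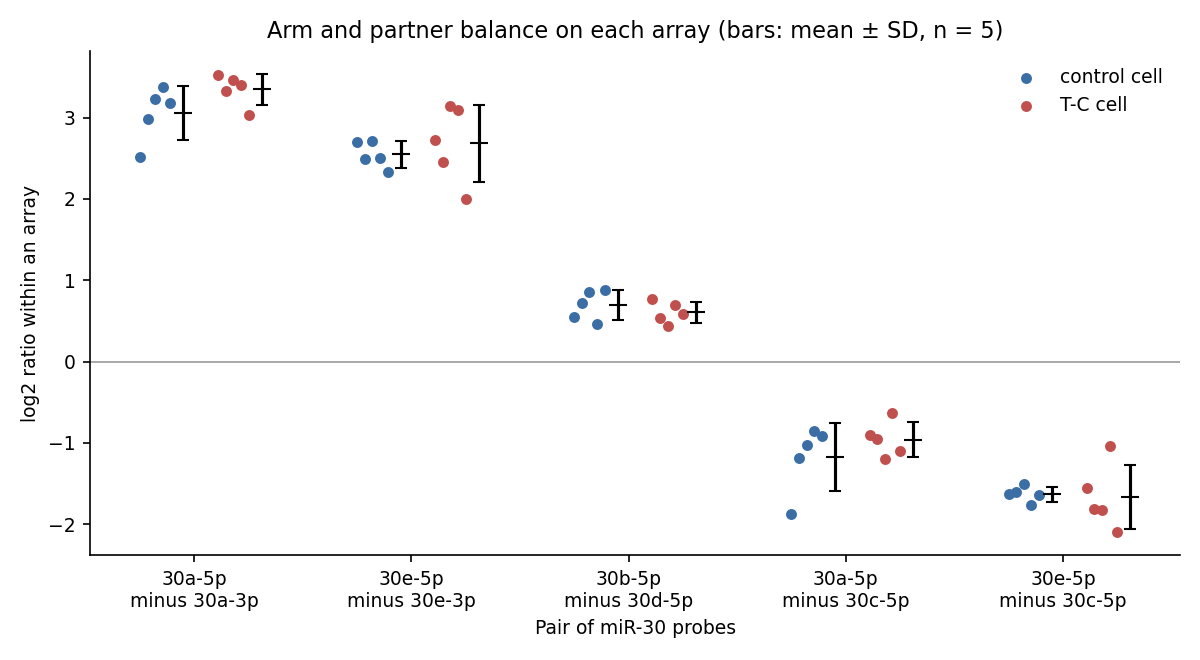
Log2 ratio of 2 miR-30 probes within each array, blue for control cell and red for T-C cell, with the mean ± SD (n = 5) beside each group. The groups overlap in all 5 ratios, and the lowest points of 30a-5p minus 30a-3p (2.51) and of 30a-5p minus 30c-5p (−1.88) are both control cell replicate 1.

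Over the alternatives tried, 0 members passed the threshold in any of 20. miR-30a-5p, miR-30b-5p and miR-30d-5p kept a positive difference in all 20 (0.11 to 0.42, 0.07 to 0.26 and 0.15 to 0.37). miR-30c-5p (−0.025 to 0.17) and miR-30e-5p (−0.11 to 0.19) did not, both turning negative under median centring, and the tested 3p arms changed sign as well. A direction for the family as a whole is therefore not given.

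**Figure D4:**
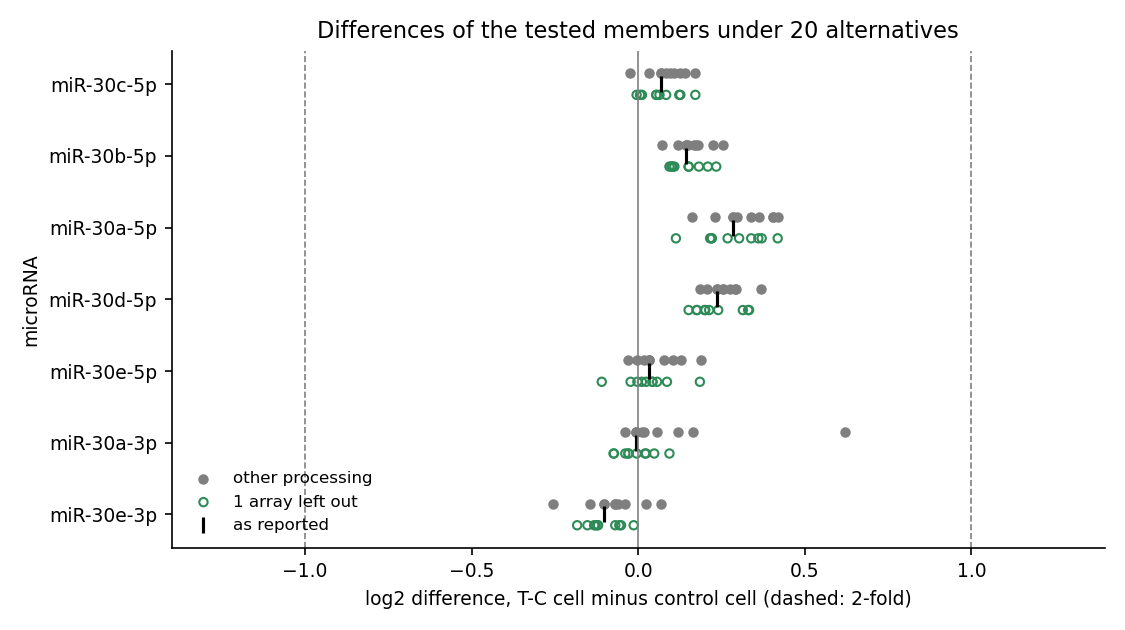
Log2 difference (T-C cell minus control cell) of the 7 tested members as reported (black bar), under 10 other ways of processing (grey) and with 1 array left out at a time (open green), with dashed lines at a 2-fold change. All points lie within the dashed lines, and the farthest from 0 is miR-30a-3p at 0.62 with blanks subtracted.

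Other miRNAs linked to the family's known roles were read from the same fit. Of 26 fibrosis-linked miRNAs listed (regulators of collagen, Ctgf or transforming growth factor signalling), 25 were on the array and 24 tested: 0 rose, 1 fell and 23 did not pass, with a median difference of −0.04, beside 7.77% passing in either direction and a median of 0.02 over all tested miRNAs. The one that fell was miR-29a-3p, a collagen regulator, with a difference of −4.45 (SE 0.21, limma adjusted p = 3.74e-08), from 6257 to 264 in mean raw intensity. Its T-C cell values (190 to 445) were near background and undetected on T-C cell replicate 3, so this size depends on the treatment of low values: it was −3.84 with 200 added and −6.96 with blanks subtracted, and passed in all 20 alternatives. miR-133b-3p, a relative of the miR-133 that targets Ctgf together with miR-30, differed by −0.70 (SE 0.22, limma adjusted p = 0.0813), and miR-29b-3p by −0.88 (SE 0.29, limma adjusted p = 0.0932), neither passing. miR-29c-3p, on the same list, differed by 0.19 (SE 0.34, limma adjusted p = 0.835). The other arm of miR-133b, miR-133b-5p, is not on the list and was higher in T-C cell samples by 3.14 (SE 0.83, limma adjusted p = 0.0419). That call was lost with all miRNAs tested, and without T-C cell replicate 4, control cell replicate 2 or control cell replicate 3. In each of these settings 0 miRNAs were called higher. Whether it held under the other alternatives is not given here. Of 28 miRNAs that, like miR-30, are abundant in most tissues, 2 rose, 0 fell and 26 did not pass, with a median difference of 0.15 beside 0.14 for the miR-30 5p arms. A share of 7.77% passed over all tested miRNAs, but that share pools both directions, 7 higher and 30 lower of 476. The calls in this list were all rises, and the list was not tested as a set. Those that rose were let-7b-5p (0.68, SE 0.14, limma adjusted p = 0.0351) and let-7a-5p (0.62, SE 0.15, limma adjusted p = 0.0419), while let-7c-5p was at 0.49 (SE 0.14, limma adjusted p = 0.0571). The call of let-7b-5p was lost in 9 of 20 alternatives (5 of them with a single array left out) and that of let-7a-5p in 12 (7 of them with a single array left out). These 3 let-7 miRNAs are growth-restraining and near-identical in sequence.

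The miRNAs whose array-to-array pattern was most like the mean of the miR-30 5p arms were picked from 469 tested outside the family by the smallest SD, over 10 arrays, of the log2 difference from that mean. They were miR-28c (SD 0.15), miR-185-5p (0.18), miR-193a-3p (0.18), let-7a-1-3p (0.19) and miR-107-3p (0.19). The median over all 469 was 0.38, and the family's own 5p arms lay 0.06 to 0.23 from their mean, which they help to form. The 5p mean itself had an SD of 0.23 over the arrays, which is what a probe with no variation would score. The 5 values are only moderately below that, and miR-193a-3p (level 8.09) and let-7a-1-3p (8.46) are dim, so a small SD here is a description and shows no shared pattern.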

How the data were processed

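Per the labels' protocols, a microarray service (LC Sciences) tailed 1 µg of Trizol-extracted total RNA, ligated a tag and stained it with Cy3. Per the file headers, the authors deposited a median spot intensity, with no scaling between arrays; for the scanner, software and background treatment the sources used here give nothing. The 2 spots of each miRNA were averaged as log2(intensity + 50) and normalized by cyclic loess (limma 3.58.1, R 4.3.3). Groups from the sample titles were compared over 476 miRNAs with limma (lmFit, eBayes with a trend, two-sided, Benjamini-Hochberg). Ratios were tested by exact permutation of 252 splits. The number of arrays limits the precision. Places are from RefSeq (GRCm38.p6) and GENCODE M21. Named miRNAs were the members, other miR-30 arms, seed relatives, up to 3 per list with the smallest p and the 5 most alike. Markers were also named, and miR-29c-3p and miR-133b-5p were added as relatives of listed miRNAs. The members, lists and rules were chosen with earlier results of these data known. Procedures were tested on simulated data.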

Additional observations from a re-analysis of the deposited data

How the results depend on the processing

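The number of miRNAs called among those tested was 37. It was 3 after subtracting the blanks (floor of 1), 14 with median centring, 1 with all 1892 miRNAs tested and 1 to 43 when single arrays were left out. Omitting T-C cell replicate 1 gave 12, omitting control cell replicate 1 or 5 gave 3, and omitting control cell replicate 2 or 3, or T-C cell replicate 4, gave 1. The split was 7 higher and 30 lower, 14 and 33 with quantile normalization, 1 and 13 with median centring, and 2 and 1 with blanks subtracted. Without normalization the median of all tested miRNAs moved from 0.02 to 0.14. For these counts and reversals the cause was not tested.

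The miR-150-5p, let-7a-5p and let-7b-5p calls each ended under median centring, no normalization, blanks subtracted and all miRNAs tested, and with T-C cell replicate 4 or any of control cell replicates 1, 2, 3 and 5 left out. For let-7a-5p and miR-150-5p this held also without T-C cell replicate 1 or 5, and for miR-150-5p without control cell replicate 4. No tested member passed under any of the 20 alternatives, and the smallest unadjusted member p in limma was 0.0724 (without control cell replicate 4). miR-30a-3p turned positive with quantile normalization (0.012), median centring (0.055), no normalization (0.16), blanks subtracted (0.62), the first spot alone (0.017) and array weights (0.12), and ranged from −0.074 to 0.094 with single arrays left out. miR-30e-3p was positive without normalization (0.067) and with array weights (0.024). miR-30c-5p was −0.025 with median centring and −0.0050 (without T-C cell replicate 3) to 0.17 with arrays left out. miR-30e-5p was −0.0046 with median centring and −0.032 with array weights, and −0.11 (without T-C cell replicate 4) to 0.18 with arrays left out.

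The miR-30a arm ratio reversed to −0.20 with blanks subtracted. The ratio of miR-30e-5p to miR-30c-5p was 0.048 with quantile normalization, 0.020 with median centring and without normalization, 0.00064 with the second spot alone, and −0.19 to 0.059 with arrays left out. The other ratios kept their sign in the 18 alternatives run for them.

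By the labels, same-numbered T-C cell and control cell samples share only a number, and whether they were paired is not said. The correlations of their deviations from the group means ran from −0.20 to 0.26, with 1 of 5 pairs above 0.1. Of the T-C cell samples 1 of 5, and of the control cell samples 0 of 5, correlated best with its own number. So few pairs cannot show that no pairing exists. With the replicate number as a block, 22 miRNAs and 0 members were called, and let-7a-5p and miR-150-5p no longer passed.

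Signal over background limits the 3p arms, the added 50 shrinks their differences, and blank subtraction makes them depend on values near the floor. For the 5p arms, far above the limits, the spread over 5 samples per group is the limit. How much signal near-identical probes share was not tested.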

Other observations

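All probes of the family sit close together on the array, the first spots in column 5 (rows 92 to 102 for the members) and the second spots in column 20 (rows 107 to 117). Whether a local effect touched them together was not tested. On control cell replicate 1, where the spots of miR-30a-5p differed 2.84-fold, 7 of 476 tested miRNAs (1.47%) had spots more than 2-fold apart. The number was 14 on T-C cell replicate 3, 8 on control cell replicate 5 and 0 or 1 on each of the other arrays. The median gap between the spots of a 5p arm was 1.04- to 1.11-fold.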
